A study of Mus musculus with 16 samples.

Results

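The 10 genes described here write, copy or remove DNA methylation: the methyltransferases Dnmt1, Dnmt3a and Dnmt3b, the maintenance cofactor Uhrf1, the dioxygenases Tet1, Tet2 and Tet3, the glycosylases Tdg and Mbd4, and Gadd45a. They were chosen by symbol from knowledge of the pathway, and all 10 were found among the 15386 genes of the RNA-seq table and the 13490 genes of the m6A table. The RNA-seq compared CFU-E cells of control mice (3 libraries) with Mettl3-deficient CFU-E Kit-lo cells (3 libraries), and the m6A experiment compared antibody-enriched RNA with input RNA of control CFU-E cells (2 libraries each). CFU-E cells are erythroid progenitors that precede the proerythroblast. They were sorted from the bone marrow of male and female C57BL/6 mice 10 to 16 weeks old. The knockout genotype was Mettl3 fl/fl EpoR Cre/–, in which the Cre recombinase is driven from the erythropoietin receptor locus and is active in erythroid cells and in the macrophages of erythroblastic islands, and in part in hematopoietic stem cells. The sources used here name the other group only as control. Both groups were sorted as live lineage-negative CD16/32-, CD41-, CD34-, Sca1-negative, CD71-positive cells. The Kit-lo gate took knockout cells with little of the Kit receptor on their surface, so that genotype and gate cannot be told apart, and Kit-lo cells of control mice were not analysed here.

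Methyl groups on cytosine at CpG sites are placed by DNMT3A and DNMT3B and are copied to the new strand at each replication by DNMT1, which UHRF1 brings to hemimethylated DNA. They are removed passively when this copying lags behind replication, or actively when TET enzymes oxidize them and TDG cuts out the oxidized base so that base excision repair restores cytosine. Erythroid cells lose DNA methylation across the genome as they mature, while METTL3 places another methyl mark, m6A, on mRNA rather than on DNA.

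In the RNA-seq, the mRNAs of Dnmt3a and Dnmt3b fell and that of Tet3 rose in the CFU-E Kit-lo libraries. The abundant maintenance genes Dnmt1 and Uhrf1 differed by less than 1.5-fold. In the m6A experiment, Tdg and Tet2 were higher in IP than in input and Gadd45a was lower. The fall of Dnmt3b depended on how reads were divided between Dnmt3b and its neighbor Dnmt3c, which rose.

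The sequences that bear on these results are a stretch shared by Dnmt3b and Dnmt3c, and the METTL3 motif GGACT in members that the m6A experiment turned on. On chromosome 2 of GRCm38 the paralogs lie side by side on the plus strand, Dnmt3b at chr2:153649450-153687730 and Dnmt3c, a rodent methyltransferase known from male germ cells, at chr2:153696652-153729907. Their annotated transcripts held 13 identical blocks of at least 31 bases, the longest of 287 bases, which covered 1060 bases or 47.7% of the Dnmt3c transcript. Below is the start of one such block, a run of 135 identical bases that continues downstream of the window, at chr2:153674885-153674944 for Dnmt3b and chr2:153717376-153717435 for Dnmt3c. The capitals mark the 2 of 60 bases that differ, and a read of these exons that covers no differing base cannot be assigned to 1 of the paralogs.
Dnmt3b: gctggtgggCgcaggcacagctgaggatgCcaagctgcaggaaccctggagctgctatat
Dnmt3c: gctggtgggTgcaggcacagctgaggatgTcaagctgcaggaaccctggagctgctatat

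The next windows show, for 5 members, the GGACT nearest to the stop codon on the sense strand of the annotated transcript, with the motif in capitals. The Tdg window is coding (chr10:82647298-82647322, plus strand), the Tet2 window lies in the 3′ UTR (chr3:133465975-133465999, minus strand), and the Gadd45a window lies in the 5′ UTR (chr6:67037247-67037271, minus strand) and holds the only GGACT of that transcript. The other windows are those closest to a stop codon: in Dnmt1 (chr9:20907513-20907537, minus strand) the motif overlaps the stop codon, and in Dnmt3b (chr2:153686399-153686423, plus strand) its central A lies 12 bases behind it.
Tdg: ttaagctgaaGGACTtgagagacca
Tet2: tgtccttgtaGGACTataatgtata
Gadd45a: gccgagggagGGACTcgcacttgca
Dnmt1: ctgctaccaaGGACTagtgctctca
Dnmt3b: gttctacccaGGACTggggagctct
GGACT was present in all 10 members and in 91.5% of the annotated transcripts of the 11441 matched genes tested, whose median was 3 per transcript, so the presence of the letters does not set the members apart. A match describes the sequence and is not a measured m6A site, since the counts are sums over a gene.

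The RNA-seq libraries held 17429262 to 21329242 estimated counts and the m6A libraries 19421059 to 37142742, of which IP replicate 1 was the deepest. Levels are given as CPM (counts scaled to the size of the library) after TMM normalization, and p-values come from the quasi-likelihood F test of edgeR and carry the Benjamini-Hochberg (BH) adjustment over the 11979 genes tested in the RNA-seq and the 11447 tested in the m6A experiment. The labels do not say that replicates came from separate animals, so p-values measure the spread between these libraries. Mettl3 itself was at 123 ± 7.43 CPM (SD, n = 3) in control and at 117 ± 9.52 CPM (SD, n = 3) in the CFU-E Kit-lo libraries (log2 fold change -0.07, edgeR BH-adjusted p = 0.634), so that its gene total does not check the labels and every direction below is that of the libraries labelled Mettl3-deficient. Of the exonic bases of Mettl3, 18.4% overlap the gene Tox4 on the other strand. The study itself reported loss of Mettl3 mRNA by qRT-PCR and of its protein by Western blot in erythroid cells of the knockout mice. Kit mRNA was at 598 ± 47.1 and 55.2 ± 12.4 CPM (SD, n = 3 and 3), lower in the cells gated for little Kit protein on the surface. The summed level of 10 erythroid markers was 3710 to 3830 CPM in control and 4980 to 5320 CPM in Kit-lo libraries, and within it Alas2, the first enzyme of heme synthesis in erythroid cells, was at 1.92 to 4.53 and at 102 to 199 CPM. The 9 of 10 macrophage markers in the table summed to 22.6 to 26.5 CPM in control and 13 to 16.5 CPM in Kit-lo libraries. The defining marker Adgre1 was near the floor in both groups, at 0 in every Kit-lo library and at most 0.115 CPM in control. The highest of these markers was Cd163, at 12.5 to 13.9 CPM in control and 4.95 to 7.86 CPM in Kit-lo libraries. In the same order, Vcam1 was at 2.86 to 2.97 and 0.6 to 2.25 CPM, and Cd68 at 3.27 to 5.45 and 3.62 to 6.1 CPM. Granulocyte markers summed to 24.8 to 38.4 and 16.7 to 24.6 CPM, megakaryocyte markers to 12.8 to 20.4 and 19.9 to 26.7 CPM, and lymphoid markers to 1.73 to 8.7 and 3.21 to 4.8 CPM. Erythroid marker levels and the groups moved together, and the part of maturation stage or of other marrow cells in the differences below was not tested. In bulk RNA, fewer cells that express a gene and less RNA per cell cannot be told apart.

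Compared per kilobase of the annotated transcript, the maintenance genes and Tdg stood far above the other members in control CFU-E cells. Dnmt1 was at 105.9 ± 5.44 CPM per kb, Uhrf1 at 73.4 ± 5.55 and Tdg at 70.1 ± 0.849 (SD, n = 3), which placed these 3 genes at percentiles 92.8, 89.1 and 88.6 of all genes tested. The libraries of Uhrf1 and Tdg overlapped, so their order was not resolved. Gadd45a followed at 11.9 ± 0.589 CPM per kb and Mbd4 at 9.18 ± 0.319, without overlap. Tet3 at 5.81 ± 0.698 and Dnmt3b at 5.51 ± 0.231 CPM per kb overlapped, and Dnmt3a at 3.81 ± 0.309, Tet2 at 1.71 ± 0.0578 and Tet1 at 0.697 ± 0.166 were lower, each separated from the next. Tet1 was at percentile 17.1 of the genes tested. In the CFU-E Kit-lo libraries the top of this order closed up, since Dnmt1 at 93.27 ± 2.999 and Uhrf1 at 87.6 ± 3.98 CPM per kb overlapped. In the middle of the order Mbd4 (12.2 ± 3.36), Gadd45a (9.97 ± 5.33) and Tet3 (8.76 ± 0.752 CPM per kb) overlapped, whereas Dnmt3b (3.25 ± 0.269), Dnmt3a (2.04 ± 0.166), Tet2 (1.43 ± 0.290) and Tet1 (0.800 ± 0.130) had separate places below them. These levels rest on 1 annotated transcript per gene and would shift with the isoform the cells use.

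By a fold change of at least 1.5 and an adjusted p-value under 0.05, 3 of the 10 members were DEGs, 1 higher and 2 lower in CFU-E Kit-lo cells, beside 22% of all genes tested, 12.1% higher and 9.83% lower. With the adjusted p-value alone 4 members passed, beside 34.5% of all genes, and the 3 control and 3 Kit-lo libraries did not overlap for 5 members, beside 47.5% of all genes. These shares were near the background for every rule, and the median log2 fold change of the members was -0.10, against 0.01 over all genes. The members are therefore described one by one.

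Of the de novo methyltransferase genes, Dnmt3a fell, and the fall of Dnmt3b was uncertain because of Dnmt3c, as described below. Dnmt3a (chr12:3806007-3914443, plus strand), which encodes the main de novo enzyme of blood cells, was at 40.2, 34.3 and 36.2 CPM in control replicates 1 to 3 and at 20.8, 17.9 and 20.5 CPM in Kit-lo replicates 1 to 3. Every Kit-lo library lay below every control library. The means of 36.9 ± 2.99 and 19.8 ± 1.61 CPM (SD, n = 3 and 3) gave a log2 fold change of -0.90 (SE 0.136, edgeR BH-adjusted p = 0.000682), and Dnmt3a stayed a DEG under all 15 alternatives tried, with a log2 fold change between -0.96 and -0.81. The share of its transcript's 31-base words found in other genes was 0.352%, so that its reads were hardly shared.

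Dnmt3b, whose product methylates repeats and pericentromeric DNA, was at 23.5, 23.0 and 24.9 CPM in control and at 14.9, 14.5 and 12.7 CPM in Kit-lo libraries. The groups did not overlap. Its mean went from 23.8 ± 0.996 to 14.1 ± 1.16 CPM (SD, n = 3 and 3), a log2 fold change of -0.76 (SE 0.147, edgeR BH-adjusted p = 0.00297). Dnmt3c, the neighbor shown above, moved the other way: it held 122, 76 and 81 estimated counts in control and 231, 165 and 164 in Kit-lo libraries, or 4.94 ± 0.793 and 9.52 ± 2.16 CPM (SD, n = 3 and 3), a log2 fold change of 0.94 (SE 0.256, edgeR BH-adjusted p = 0.017). Dnmt3c took 15.7% to 19.9% of the counts of the pair in control and 35.6% to 44.6% in Kit-lo libraries. Of the 31-base words of the Dnmt3b transcript 15.6% also occur in Dnmt3c, and 31.9% of those of Dnmt3c occur in Dnmt3b. When the counts of both genes were summed, an alternative chosen after seeing the data, the log2 fold change was -0.29 (edgeR BH-adjusted p = 0.15) and the call was lost. The decrease of Dnmt3b as a gene of its own is therefore uncertain, since a count estimated over shared sequence can move from one paralog to the other, and that of Dnmt3a is not touched by this. Dnmt3l, the catalytically inactive partner of the de novo enzymes, was not among the genes of either table.

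The maintenance genes had small log2 fold changes of opposite sign. Dnmt1 (chr9:20907209-20959888, minus strand) was at 536, 593 and 576 CPM in control and at 510, 482 and 509 CPM in Kit-lo libraries. The Kit-lo libraries lay just below the controls, but the log2 fold change of -0.18 (SE 0.0727, edgeR BH-adjusted p = 0.0785) did not pass the test. Uhrf1 (chr17:56303321-56323486, plus strand) was at 280, 241 and 269 CPM in control and at 301, 313 and 329 CPM in Kit-lo libraries. All 3 Kit-lo libraries were above the controls. The log2 fold change of 0.25 (SE 0.0823, edgeR BH-adjusted p = 0.0363) passed the p-value threshold and stayed under the fold threshold. The p-value threshold was missed with upper quartile normalization (edgeR BH-adjusted p = 0.0585), with no filter on low counts (0.0678), in the test against a fold of 1.2 (0.52), without control replicate 1 (0.0537), 2 (0.143) or 3 (0.1) and without Kit-lo replicate 3 (0.065), while the log2 fold change stayed between 0.19 and 0.31. Part of the Uhrf1 transcript is shared with a pseudogene, Gm5648 (26.5% of its 31-base words). Its paralog Uhrf2 was at 19.3 ± 0.980 and 16.6 ± 1.88 CPM (SD, n = 3 and 3), with overlapping libraries and a log2 fold change of -0.22 (edgeR BH-adjusted p = 0.324).

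**Figure D1:**
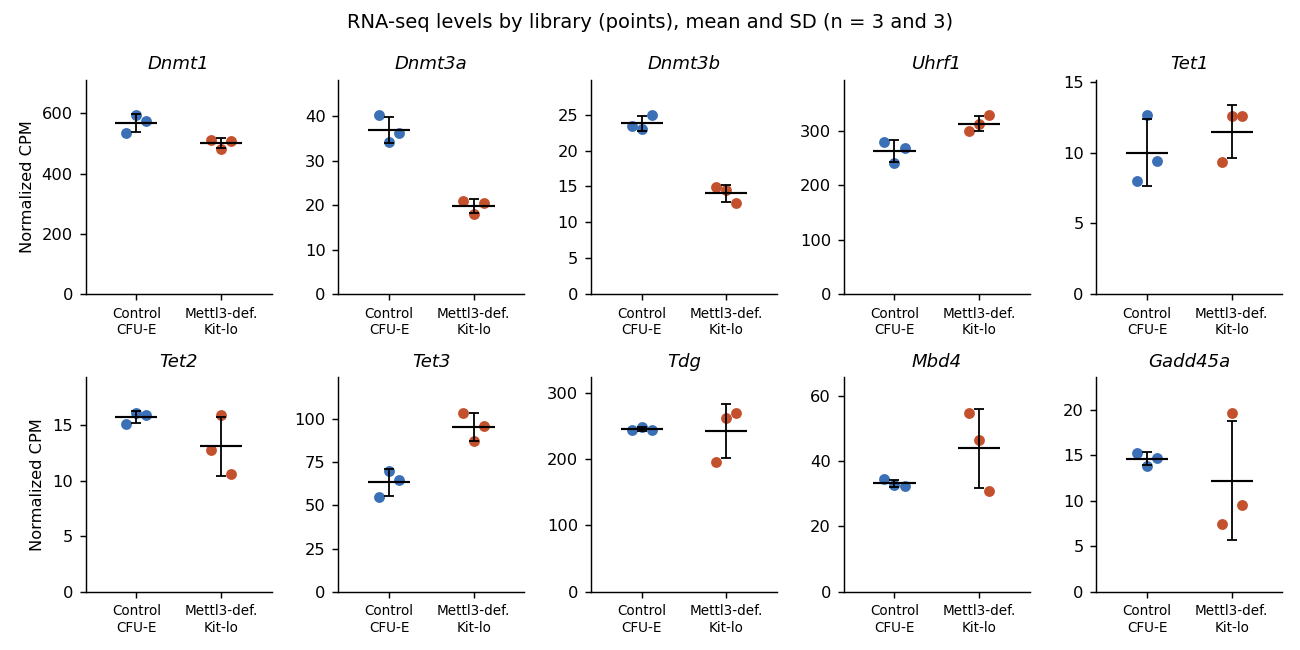
Normalized CPM (vertical axes, from 0) of the 10 members in the RNA-seq, with 1 point per library, 3 control CFU-E and 3 Mettl3-deficient CFU-E Kit-lo; horizontal lines are means and error bars SD. The groups are apart for Dnmt1, Dnmt3a, Dnmt3b, Uhrf1 and Tet3 and overlap for the others. The Kit-lo libraries of Tet2, Tdg, Mbd4 and Gadd45a are spread more widely than the controls.

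Among the TET dioxygenases, which oxidize methylcytosine, Tet3 passed the test and Tet1 and Tet2 did not. Tet3 (chr6:83362373-83459084, minus strand) was at 55.1, 70.1 and 64.8 CPM in control and at 103, 87.1 and 96.2 CPM in Kit-lo libraries. The groups did not overlap. Its mean rose from 63.3 ± 7.61 to 95.6 ± 8.20 CPM (SD, n = 3 and 3), a log2 fold change of 0.59 (SE 0.118, edgeR BH-adjusted p = 0.0033). The fold of 1.51 is just past the threshold of 1.5, and Tet3 was no longer a DEG with upper quartile normalization (log2 fold change 0.56), with no filter on low counts (0.58), without control replicate 1 (0.50) or without Kit-lo replicate 1 (0.53), although its adjusted p-value stayed at or below 0.0194 in all alternatives.

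Tet2 (chr3:133463679-133545139, minus strand), a gene often mutated in clonal hematopoiesis, was at 15.1, 16.1 and 15.9 CPM in control and at 12.8, 15.9 and 10.6 CPM in Kit-lo libraries. Kit-lo replicate 2 lay within the control range and the other Kit-lo libraries below it. The log2 fold change was -0.26 (SE 0.189, edgeR BH-adjusted p = 0.325). Tet1 (chr10:62804570-62908996, minus strand), the TET enzyme best known from embryonic stem cells, was at 7.997, 12.6 and 9.39 CPM in control and at 9.35, 12.6 and 12.6 CPM in Kit-lo libraries, which overlapped, with a log2 fold change of 0.20 (SE 0.231, edgeR BH-adjusted p = 0.548).

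Within the family, per kilobase, Tet3 made up 69.7%, 71.0% and 71.3% of the TET level in control and 82.3%, 75.4% and 81.3% in Kit-lo libraries. Tet2 went from 20.9 ± 1.67% to 13.0 ± 2.97% and Tet1 from 8.41 ± 1.13% to 7.32 ± 1.46% (SD, n = 3 and 3). Tet3 was thus the predominant TET mRNA in both groups, and its share was higher in each Kit-lo library than in any control library. The summed TET level was 8.21 ± 0.909 CPM per kb in control and 10.99 ± 0.484 in Kit-lo libraries, while the sum of Dnmt3a and Dnmt3b was 9.32 ± 0.392 and 5.29 ± 0.276 CPM per kb (SD, n = 3 and 3). The latter sum holds the uncertain counts of Dnmt3b and leaves out Dnmt3c. Dnmt3c was at 2.22 ± 0.357 CPM per kb in control and 4.28 ± 0.973 in Kit-lo libraries (SD, n = 3 and 3). These shares and sums are descriptions of the levels above and were not tested.

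**Figure D2:**
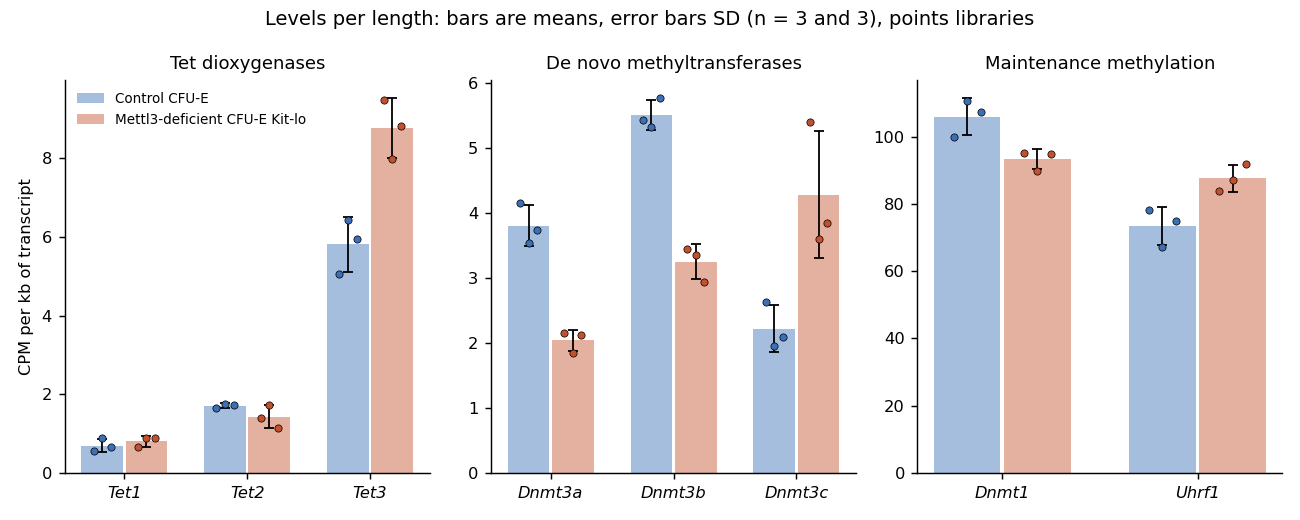
CPM per kilobase of annotated transcript (vertical axes, from 0) for the TET genes, the de novo methyltransferases with Dnmt3c, and the maintenance genes; bars are means, error bars SD and points the 3 control CFU-E and 3 Mettl3-deficient CFU-E Kit-lo libraries. Tet3 was the highest TET gene in both groups (5.81 and 8.76 CPM per kb), and Dnmt3c was higher where Dnmt3b was lower.

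The glycosylase genes Tdg and Mbd4 and Gadd45a varied more between Kit-lo libraries than between controls, as did Tet2. The SD between libraries was 2.97 CPM in control and 40.5 CPM in Kit-lo for Tdg (n = 3 and 3). In the same order it was 1.15 and 12.1 CPM for Mbd4, 0.720 and 6.51 CPM for Gadd45a, and 0.531 and 2.66 CPM for Tet2. These differences in spread were not tested. Tdg (chr10:82629828-82650799, plus strand), the thymine DNA glycosylase, was at 243, 249 and 245 CPM in control and at 196, 262 and 269 CPM in Kit-lo libraries. Kit-lo replicate 1 was below the controls and the other Kit-lo libraries above them. The log2 fold change of -0.02 (SE 0.115, edgeR BH-adjusted p = 0.918) turned to 0.03 with library sizes alone and to 0.11 without Kit-lo replicate 1. Of the 31-base words of Tdg 75.7% occur in other genes, 58.6% in the pseudogene Tdg-ps, which nevertheless held only 2 to 18 estimated counts per RNA-seq library beside 3766 to 5392 for Tdg. Mbd4 (chr6:115840697-115853371, minus strand), a glycosylase for G:T mismatches, was at 34.5, 32.7 and 32.3 CPM in control and at 54.7, 46.3 and 30.8 CPM in Kit-lo libraries. Kit-lo replicate 3 was below the controls and the other Kit-lo libraries above them, and the log2 fold change of 0.41 (SE 0.189, edgeR BH-adjusted p = 0.129) did not pass. Without Kit-lo replicate 3 it was 0.62 and passed (edgeR BH-adjusted p = 0.00602). Gadd45a (chr6:67035096-67037457, minus strand), a stress-induced gene proposed to act in active demethylation, was at 15.3, 13.8 and 14.7 CPM in control and at 7.43, 19.6 and 9.54 CPM in Kit-lo libraries. Kit-lo replicate 2 was above all controls and the other Kit-lo libraries below them. The log2 fold change was -0.26 (SE 0.316, edgeR BH-adjusted p = 0.579), and without Kit-lo replicate 2 it was -0.76 and passed (edgeR BH-adjusted p = 0.0266). For Mbd4 and Gadd45a 1 library therefore decided the outcome, and not the same library for each.

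The paralog Gadd45g differed more than any member. It was at 18.7 ± 3.17 CPM in control and at 93.7 ± 21.5 CPM in Kit-lo libraries (SD, n = 3 and 3), a log2 fold change of 2.33 (SE 0.192, edgeR BH-adjusted p = 1.69e-05). Gadd45b was too low to test, with 0 to 25 estimated counts per RNA-seq library. Gadd45gip1, a mitochondrial ribosome protein grouped by its name, rose from 112 ± 4.18 to 180 ± 8.36 CPM (SD, n = 3 and 3), a log2 fold change of 0.68 (edgeR BH-adjusted p = 0.000185).

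The DEGs of the wider pathway lists are given by count, to be read beside the 12.1% of all genes tested that were higher and the 9.83% that were lower, and none of these counts was tested as a set. Values in parentheses are log2 fold changes of CFU-E Kit-lo over control. Of 9 tested methyltransferase relatives and cofactors 3 rose and 0 fell, with a median log2 fold change of 0.00: Dnmt3c, Pclaf, which binds the sliding clamp PCNA (0.91, edgeR BH-adjusted p = 4.05e-05), and Zbtb24, mutated in an immunodeficiency with loss of DNA methylation (0.76, edgeR BH-adjusted p = 0.00173). Of 9 methyl-CpG readers and relatives 1 rose, Mbd6 (1.15, edgeR BH-adjusted p = 0.039), and the median was 0.14. Of 8 TET cofactors and related metabolic genes 2 fell: Cxxc5, which binds unmethylated CpG DNA (-2.62, edgeR BH-adjusted p = 0.0132) and was at only 1.71 ± 0.350 CPM in control, and D2hgdh, which clears the TET inhibitor 2-hydroxyglutarate (-0.81, edgeR BH-adjusted p = 0.00117).

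Downstream of the glycosylases, 1 of 17 base excision repair genes rose, the endonuclease gene Apex2 (1.07, edgeR BH-adjusted p = 0.00143), and 1 fell, the glycosylase gene Nthl1 (-0.63, edgeR BH-adjusted p = 0.0257), with a median of -0.16. Of the 2 cytidine deaminases tested Apobec1 rose (0.59, edgeR BH-adjusted p = 0.0397) and Apobec3 fell from 561 ± 26.5 to 358 ± 34.8 CPM (-0.65, edgeR BH-adjusted p = 0.000373). Among 10 genes of the S-adenosylmethionine cycle, which supplies the methyl donor of DNA and RNA methyltransferases, 0 rose and 1 fell: Mtr, methionine synthase, went from 130 ± 8.76 to 56.6 ± 7.39 CPM (SD, n = 3 and 3; -1.19, edgeR BH-adjusted p = 4.87e-05). Of 19 replication fork genes 1 was a DEG, Gins1 (0.61, edgeR BH-adjusted p = 0.00276), and the median was 0.13. A log2 fold change above 0 was found for 15 of the 19, beside 6063 of all 11979 genes tested. The summed level of the fork genes was 6360 to 6590 CPM in control and 7280 to 7490 CPM in Kit-lo libraries. Uhrf1, which cycling cells express with these genes, moved in the direction of most of them. Dnmt1, the other maintenance gene, moved the other way (-0.18). The part of replication activity in these differences was not tested.

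In the m6A experiment RNA of control CFU-E cells was precipitated with an antibody to m6A, and a gene higher in IP than in input by an adjusted p-value under 0.05 was called m6A-modified. By this rule 2 of the 10 members were higher in IP, beside 7.9% of all genes tested, and 1 was lower, beside 7.86%. The IP and input libraries did not overlap for 6 members, beside 60.9% of all genes, so that this count says little on its own. The median log2 ratio of the members was 0.50, against 0.06 over all genes.

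Tdg was at 26.9 and 19.2 CPM in input replicates 1 and 2 and at 77.8 and 38.6 CPM in IP replicates 1 and 2. Both IP libraries were above both inputs, and the IP libraries differed from each other by more than the inputs did. The log2 fold change of IP over input was 1.34 (SE 0.337, edgeR BH-adjusted p = 0.0248), a fold of 2.53. Tet2 was at 4.50 and 5.003 CPM in input and at 11.8 and 8.39 CPM in IP. Its libraries did not overlap either, and the log2 fold change of 1.09 (SE 0.308, edgeR BH-adjusted p = 0.0381) was a fold of 2.13. Both calls needed all 4 libraries or the 3 that remain without IP replicate 2: with input replicate 1, input replicate 2 or IP replicate 1 left out, adjusted p-values were 0.0552, 0.0679 and 0.171 for Tdg and 0.229, 0.0974 and 0.16 for Tet2 (edgeR, BH). Without IP replicate 1 the log2 ratio of Tdg was 0.72 and that of Tet2 0.80. For Tdg this library thus moved the fold by over 1.5 times. These fits did not pair IP with input. With all 4 libraries and the replicate number as a block, Tdg (1.28, edgeR BH-adjusted p = 0.000122) and Tet2 (1.08, edgeR BH-adjusted p = 0.00952) passed. The labels do not say that same-numbered libraries came from the same RNA. The Tdg-ps pseudogene was not among the genes of the m6A table.

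Gadd45a was the member lower in IP. It was at 34.2 and 43.1 CPM in input and at 12.8 and 11.7 CPM in IP. Both IP libraries were far below both inputs. The log2 fold change of -1.66 (SE 0.256, edgeR BH-adjusted p = 0.00193) was a fold of 0.317, and it held in all 11 alternatives, between -1.84 and -1.49. Its transcript was the shortest of the members, 1223 bases with 1 GGACT, and 19.1% of its exonic bases overlap the antisense gene E230016M11Rik, so that without a stated strand setting reads of the antisense gene cannot be told apart. A lower value in IP says that the RNA took a smaller share of the IP library than of the input library, and not that it carries no m6A.

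Uhrf1 came next. It was at 46.4 and 38.2 CPM in input and at 84.2 and 61.2 CPM in IP, with no overlap, and its log2 fold change of 0.78 (SE 0.248) missed the threshold (edgeR BH-adjusted p = 0.056). It passed with DESeq2 (BH-adjusted p = 0.0347), with upper quartile normalization (0.0219), with the replicate number as a block (0.00303) and without IP replicate 2 (0.0296). The other TET genes had ratios above 0 that did not pass. Tet3 was at 11.9 and 12.9 CPM in input and at 20.9 and 16.7 CPM in IP, which did not overlap (0.61, SE 0.262, edgeR BH-adjusted p = 0.141). Tet1 was at 0.882 and 0.562 CPM in input and at 1.87 and 1.21 CPM in IP, which did not overlap (1.09, SE 0.526, edgeR BH-adjusted p = 0.183). Its ratio was as high as that of Tet2, but it rested on 20 and 10 estimated counts in input and 78 and 24 in IP, and a difference of that size was not resolved at this depth.

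The methyltransferases were not enriched. Dnmt1 was at 93.3 and 52.1 CPM in input and at 55.3 and 47.9 CPM in IP. These overlapped, since IP replicate 1 lay above input replicate 2, and the log2 fold change was -0.49 (SE 0.286, edgeR BH-adjusted p = 0.262). Dnmt3a was at 33.8 and 21.1 CPM in input and at 23.6 and 29.0 CPM in IP (-0.07, SE 0.285, edgeR BH-adjusted p = 0.902). Dnmt3b was at 9.04 and 8.15 CPM in input and at 8.66 and 7.84 CPM in IP (-0.06, SE 0.278, edgeR BH-adjusted p = 0.910). For both de novo genes IP and input overlapped and the sign turned with the scaling, to 0.07 for both genes with upper quartile normalization. In these libraries, made from the same kind of control cells as the RNA-seq controls but read from the 3′ side, Dnmt3c held 59.3% and 65.7% of the counts of the pair Dnmt3b and Dnmt3c in input and 53.9% and 54.8% in IP, against at most 19.9% in control RNA-seq libraries. The division of reads between these paralogs thus differed between the library types, and its cause was not tested. Mbd4 was at 13.8 and 10.5 CPM in input and at 18.5 and 13.4 CPM in IP, which overlapped (0.40, SE 0.287, edgeR BH-adjusted p = 0.372).

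**Figure D3:**
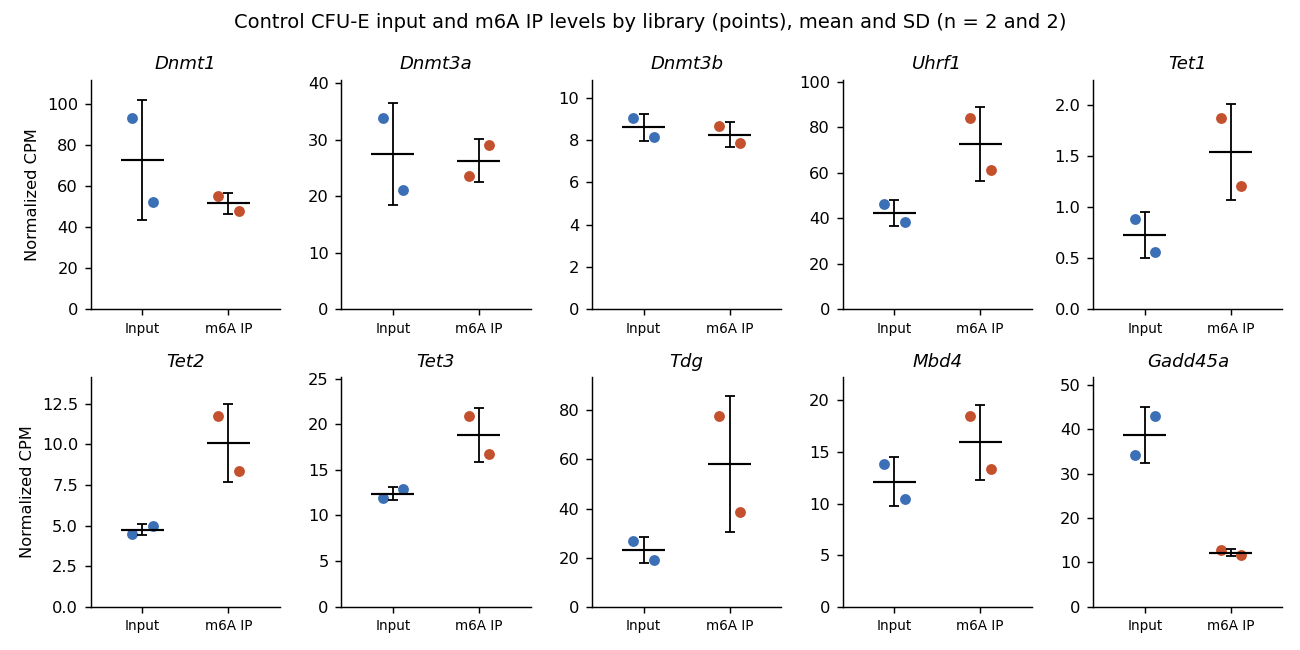
Normalized CPM (vertical axes, from 0) of the 10 members in input and m6A IP libraries of control CFU-E cells, with 1 point per library (2 and 2), means as lines and SD as error bars. Both IP points are above both inputs for Uhrf1, Tet1, Tet2, Tet3 and Tdg and below them for Gadd45a.

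Motif counts are given as a description. The annotated transcript held 15 GGACT in Dnmt3a (1.55 per kb), which had no enrichment, 6 in Tdg (1.71 per kb), 9 in Tet2 (0.98 per kb), 13 in Tet1 (0.905 per kb) and 3 in Dnmt1 (0.559 per kb), beside a median of 1.03 per kb over all genes tested. Transcript length moved with the calls over all genes: the median was 4118 bases for the genes higher in IP and 2293 bases for those lower in IP, against 2975 bases over all genes. Tet2 with 9179 bases and Tdg with 3502 bases were above this overall median and Gadd45a with 1223 bases below it, and the part of length in these results was not tested.

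For the wider lists, values in parentheses are log2 fold changes of IP over input. Counts are to be read beside the 7.9% of all genes tested that were higher in IP and the 7.86% that were lower. None of these counts was tested as a set. Among 9 genes listed as methyl-CpG readers and their relatives 2 were higher in IP and 1 was lower, with a median log2 fold change of 0.68. Zbtb38, a zinc finger protein that binds methylated CpG, was at 23.7 ± 13.6 CPM in input and 202 ± 32.2 CPM in IP (SD, n = 2 and 2; log2 fold change 3.09, edgeR BH-adjusted p = 0.00036), Zbtb33 was also higher (1.69, edgeR BH-adjusted p = 0.0336), and Mbd3, a subunit of the NuRD complex that in mammals does not bind methylated CpG selectively, was lower, from 383 ± 21.2 to 78.1 ± 2.31 CPM (-2.29, edgeR BH-adjusted p = 7.15e-05). Of 8 TET cofactors and related metabolic genes tested 2 were higher and 1 was lower, with a median of -0.0012. The isocitrate dehydrogenases, which supply the 2-oxoglutarate that TET enzymes use, were split: cytosolic Idh1 was higher in IP (1.34, edgeR BH-adjusted p = 0.0216) and mitochondrial Idh2 lower (-1.37, edgeR BH-adjusted p = 0.00212). Dcaf1, part of the ubiquitin ligase that acts on TET proteins, was higher (1.73, edgeR BH-adjusted p = 0.00365). The 17 base excision repair genes tested had a median of 0.09. Their calls included Parp2, which was higher (0.72, edgeR BH-adjusted p = 0.0428), and Apex1, which was lower (-0.88, edgeR BH-adjusted p = 0.0335). Of 19 replication fork genes Mcm4 (1.66, edgeR BH-adjusted p = 0.00263) and Mcm6 (1.25, edgeR BH-adjusted p = 0.0493) were higher and 0 lower, and the median was -0.05. Methyltransferase relatives, Gadd45 paralogs, deaminases and the S-adenosylmethionine cycle gave 0 calls in either direction; the lowest values among the named paralogs were those of Uhrf2 (-0.85, edgeR BH-adjusted p = 0.0515) and Dnmt3c (-0.55, edgeR BH-adjusted p = 0.183).

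Set side by side, no member was called in both experiments. The share of all genes called in both was not computed, so no conclusion is drawn from this count. Dnmt3a and Dnmt3b were called lower in CFU-E Kit-lo cells, Dnmt3b only when its counts were taken without those of Dnmt3c. Their log2 ratios of IP over input were -0.07 and -0.06. Tet3, higher in CFU-E Kit-lo cells, had a ratio of 0.61 that did not pass the test. Tdg and Tet2, higher in IP, had RNA-seq log2 fold changes of -0.02 and -0.26, and Gadd45a, lower in IP, had one of -0.26. The m6A experiment covered control cells alone, and m6A in Mettl3-deficient cells was not analysed here.

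**Figure D4:**
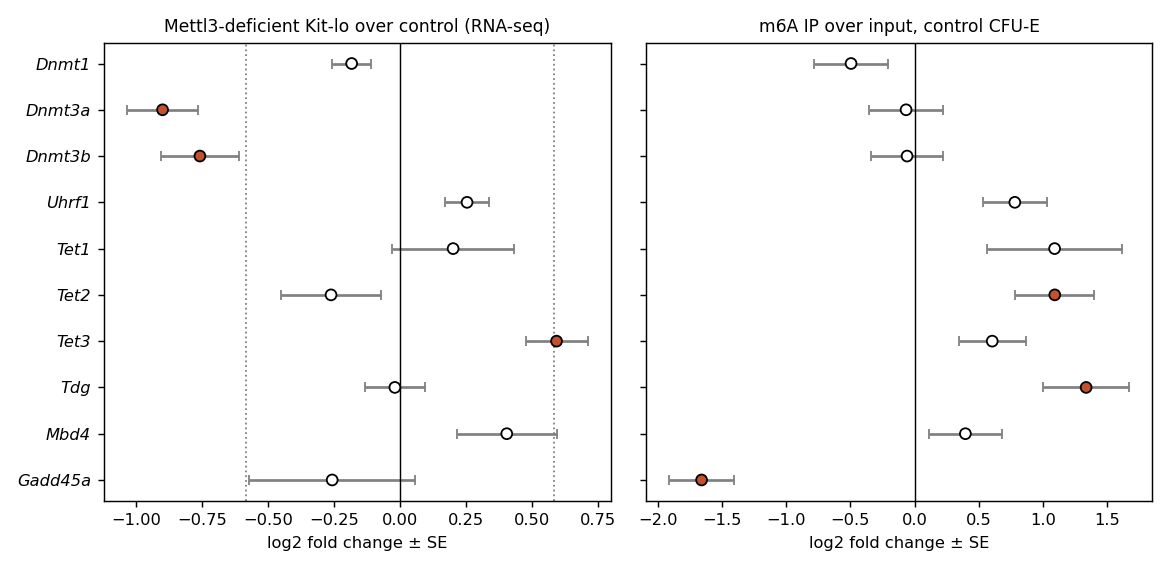
Log2 fold change ± SE (horizontal axes) of the 10 members, on the left for Mettl3-deficient CFU-E Kit-lo over control CFU-E, with dotted lines at a fold of 1.5, and on the right for m6A IP over input; filled points passed the thresholds. The filled points are Dnmt3a, Dnmt3b and Tet3 on the left and Tet2, Tdg and Gadd45a on the right.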

How the data were processed

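Bulk RNA-seq libraries (Smart-seq2, oligo-dT primed) of 3 control CFU-E and 3 Mettl3-deficient CFU-E Kit-lo samples, and m6A IP and input libraries (SLIM-seq, made from the 3′ end; 2 and 2) of control CFU-E cells, were used; groups came from the sample titles. The 6 ProE samples were not analysed here. Per the labels and the study's methods, the authors filtered reads with fastp 0.23.4, quantified transcripts with Kallisto 0.48.0 and merged them to genes with tximport. The deposited values are estimated counts per gene, whole numbers with no normalization. The submitters' processing notes name both mm10 and GRCm39. Whether strand or the molecular identifiers of SLIM-seq entered the counting is not given in the sources used here, and reads without identifiers are not independent molecules.

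The counts were fitted for each experiment in R 4.3.3 with edgeR 4.0.16 (TMM, filterByExpr, glmQLFit, glmQLFTest) and adjusted by Benjamini-Hochberg over all genes tested. SE is the absolute log2 fold change divided by the square root of F. edgeR put the coefficient of biological variation at 19.1% (RNA-seq) and 21.9% (m6A), and 0 pairs of libraries were identical. DEGs had a fold of at least 1.5 and an adjusted p-value under 0.05. For m6A the adjusted p-value and the sign were used. Calculations were tested on simulated data. Transcripts (1 per gene, coding, preferring one with a 3′ UTR), motifs and shared 31-base words came from GENCODE vM21 on GRCm38, the same assembly as mm10, and windows were checked against the RefSeq genome of that build. All 10 members matched by symbol. Markers and pathway lists were written from general knowledge. The text names all members, their paralogs and, of each list, the genes past the threshold (at most 3 in each direction). One result of these lists is not reported here. The members and lists were chosen with earlier results of these data known. Alternatives were DESeq2 1.42.0, other scalings, no count filter, no fold threshold, a test against a fold of 1.2, a replicate block, each library left out, and Dnmt3b and Dnmt3c summed. Figures were drawn with matplotlib 3.10.9.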

Additional observations from a re-analysis of the deposited data

How the results depend on the processing

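Of 260 values of single members under alternative settings, 233 kept both direction and side of the threshold, 11 lost their call, 7 gained one and 9 turned sign. The number of members called in the RNA-seq was 3, with 2 to 4 under the alternatives; it was 2 with upper quartile normalization, with no filter on low counts and with Dnmt3b and Dnmt3c summed, and with libraries left out in turn it was 2 to 4. The number lower in m6A IP was 1 in every alternative. The number higher in m6A IP was 2, and with libraries left out in turn it ran from 0 to 3: it was 0 without input replicate 1, without input replicate 2 and without IP replicate 1, where fewer samples were fitted and the lone library of a group is assumed to vary like the others. Values that turned sign were small. In the RNA-seq, Tdg was at 0.0314 with library sizes alone and at -0.0911 to 0.11 with libraries left out in turn, the highest with Kit-lo replicate 1 left out. In the m6A experiment, Dnmt3a was at 0.0729 with library sizes alone, at 0.0687 with upper quartile normalization and at -0.3716 to 0.29 with libraries left out (0.0595 without IP replicate 1), and Dnmt3b was at 0.102, 0.0692 and -0.1514 to 0.0065 in the same order. Those scalings moved the median m6A ratio of all genes by 0.157 (library sizes) and 0.128 (upper quartile), and the RNA-seq median by at most 0.0522. Same-numbered libraries correlated with r of -0.0871 to 0.0821 in the RNA-seq, and differently numbered ones with r of -0.167 to 0.185. These values cannot show whether the numbers pair the samples, and the labels do not say. In the m6A table the value of same-numbered libraries was 0.319. Values were centered on the group mean, so with 2 libraries per group both same-numbered pairs give the same value. It is therefore 1 observation, and the labels give no shared batch. With the replicate block, the RNA-seq count stayed at 3 and the m6A counts were 3 higher and 1 lower, Uhrf1 joining with a log2 fold change of 0.77. The 2 libraries per m6A group limit what that experiment can resolve.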
